A study of Mus musculus with 15 samples.

Results

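The cell cycle and DNA replication genes described here are a list of 56 genes. They were chosen by their known roles, with earlier results of these data known. The list covers the D, E, A and B cyclins and their kinases, kinase inhibitors, the replication machinery, chromosome structure, the spindle checkpoint and cytokinesis. A member was taken as measured if the array table held a probe set whose only annotated symbol was that gene. By this rule 33 of the 56 members, each with 1 probe set, were found among 12848 genes with a symbol of their own, and 23 were not analysed here. RNA came from whole aorta of C57BL6 mice that were 2 months old and carried an osmotic minipump for 3 weeks. In 8 mice the pump delivered angiotensin II (AngII) at 1 µg/kg/min, and in 7 mice it delivered saline, the vehicle. Each aorta was cleaned of fat and hybridized to its own Affymetrix array, and the authors deposited log2 signals after robust multiarray analysis (RMA). The comparison asks what AngII infusion changed in the aortic wall. The members not analysed here were Ccne1, Ccne2, E2f8, Rrm2, Top2a, Ncapg, Ccnb1, Cdk1, Foxm1, Melk, Bub1, Bub1b, Ttk, Cenpe, Cenpf, Ube2c, Birc5, Kif11, Kif20a, Kif23, Prc1, Nusap1 and Racgap1. Of these, Top2a had 2 probe sets that were annotated to a further gene as well and were therefore left out.

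Cells enter the cycle when D cyclins with Cdk4 or Cdk6, and then E cyclins with Cdk2, release E2F transcription factors from the retinoblastoma family of proteins. E2F factors drive the genes of DNA replication, whereas many genes of mitosis are switched on later through CCAAT boxes and the cell cycle genes homology region (CHR), a short element close to the start of transcription. In the adult aorta smooth muscle and endothelial cells are nearly all at rest, and cycling cells are few. The array measured the tissue as a mixture, so more cycling cells and more RNA per cycling cell cannot be told apart. All 10 smooth muscle markers were in the table, with a median log2 signal of 11.27. The probe sets of 20 of the 33 members lay below the median signal of all 15095 probe sets, 7.225, and the lowest member mean, 5.76 for Aurkb, was near the dim end of the table at 5.395. Signals of different probe sets are not comparable as mRNA levels, and these values only place the members on the range of the array.

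AngII-infused aortae had more Mki67, Smc4 and Ccna2 mRNA than vehicle-infused aortae, and no member was lower after adjustment. Mki67 encodes Ki-67, a protein that coats mitotic chromosomes and is used as a mark of cycling cells, Smc4 is a core ATPase of condensin, and Ccna2 is the cyclin of S phase and mitotic entry. These 3 of 33 members had a limma p under 0.05 once adjusted over the whole table by the Benjamini-Hochberg method. Among all probe sets 2.42% passed as higher and 2.91% as lower. At an unadjusted p under 0.05, 14 members were higher and 2, Ccnd2 and Cdkn1b, were lower, where 9.29% and 12.6% of all probe sets did so. The log2 fold change was above 0 for 27 members (81.8%), against 47.4% of all probe sets and 51.7% of those below the median signal. Its median over the members was 0.15, against -0.01 over all probe sets and 0.01 over those below the median signal. Every AngII array lay above every vehicle array for 2 members, Mki67 and Ccna2, which was the case for 0.55% of all probe sets. No member had every AngII array below every vehicle array, and 0.543% of probe sets did. These counts and medians describe the list, and no test was made over its members.

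Mki67 had the largest difference of the 33 members, on a probe set below the median signal of the table, with 32.4% of probe sets dimmer. In vehicle arrays its lowest log2 signal was 5.85, its median 6.09 and its highest 6.58. In AngII arrays the lowest was 6.59, the median 6.86 and the highest 8.00. The groups did not overlap, although the highest vehicle array, vehicle 1, and the lowest AngII array, AngII 4, nearly touched. The means were 6.165 ± 0.26 (SD, n = 7) and 6.97 ± 0.455 (SD, n = 8). This is 1.75-fold more in AngII, with a log2 fold change of 0.81 (standard error, SE, 0.18, and limma adjusted p = 0.0174). An exact permutation test of the means, two-sided, gave an unadjusted p = 0.000311, the smallest that 7 arrays against 8 allow. AngII 8, at 8.00, stood apart from the next array, AngII 2 at 7.09. Without AngII 8 the log2 fold change of Mki67 was 0.66 (limma adjusted p = 0.00938) and the exact permutation p was 0.000583, again the smallest possible.

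Ccna2, whose product partners Cdk2 in S phase and Cdk1 in G2, had the same pair of arrays at the top. Its lowest, median and highest log2 signals were 5.23, 5.47 and 5.71 in vehicle and 5.84, 5.92 and 7.015 in AngII arrays. All 8 AngII arrays were above all 7 vehicle arrays, and AngII 8 was again far above the rest, the next being AngII 2 at 6.18. The probe set of Ccna2 was dim, with only 9.23% of probe sets dimmer. The lowest probe set mean of the table was 5.395. Means of 5.51 ± 0.17 (SD, n = 7) and 6.07 ± 0.395 (SD, n = 8) gave a log2 fold change of 0.56 (SE 0.15, limma adjusted p = 0.0376). Without AngII 8 the difference was 0.43 (limma adjusted p = 0.0111). The call of Ccna2 was close to the threshold, and leaving out any 1 of vehicle 2, 3, 4, 5 or 7 or AngII 2, 5 or 7 ended it, with adjusted p from 0.0509 to 0.0866. In those fits the difference itself was 0.515 to 0.589. Over the whole table, 170 to 413 probe sets were called higher in them, against 366 with all arrays.

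Smc4, which with Smc2 forms the ATPase arms of both condensin complexes, was at 7.30, 7.70 and 7.96 (lowest, median, highest) in vehicle and at 7.79, 8.04 and 8.33 in AngII arrays. Vehicle 3 and vehicle 4 lay within the AngII range, and the other 5 vehicle arrays lay below it. With a log2 fold change of 0.41 (SE 0.10, limma adjusted p = 0.03), Smc4 was 1.33-fold higher. The probe set of Smc4 lay above the median signal of the table, with 66.2% of probe sets dimmer. Without AngII 8 the difference was 0.37 and the call ended (limma adjusted p = 0.0558), as it did without vehicle 2, 5 or 6 or AngII 3, 4 or 7. In those fits the difference was 0.36 to 0.43. Its partner Smc2 was at 6.35 ± 0.13 (SD, n = 7) and 6.49 ± 0.18 (SD, n = 8), and this difference of 0.13 did not pass (adjusted p = 0.361).

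**Figure D1:**
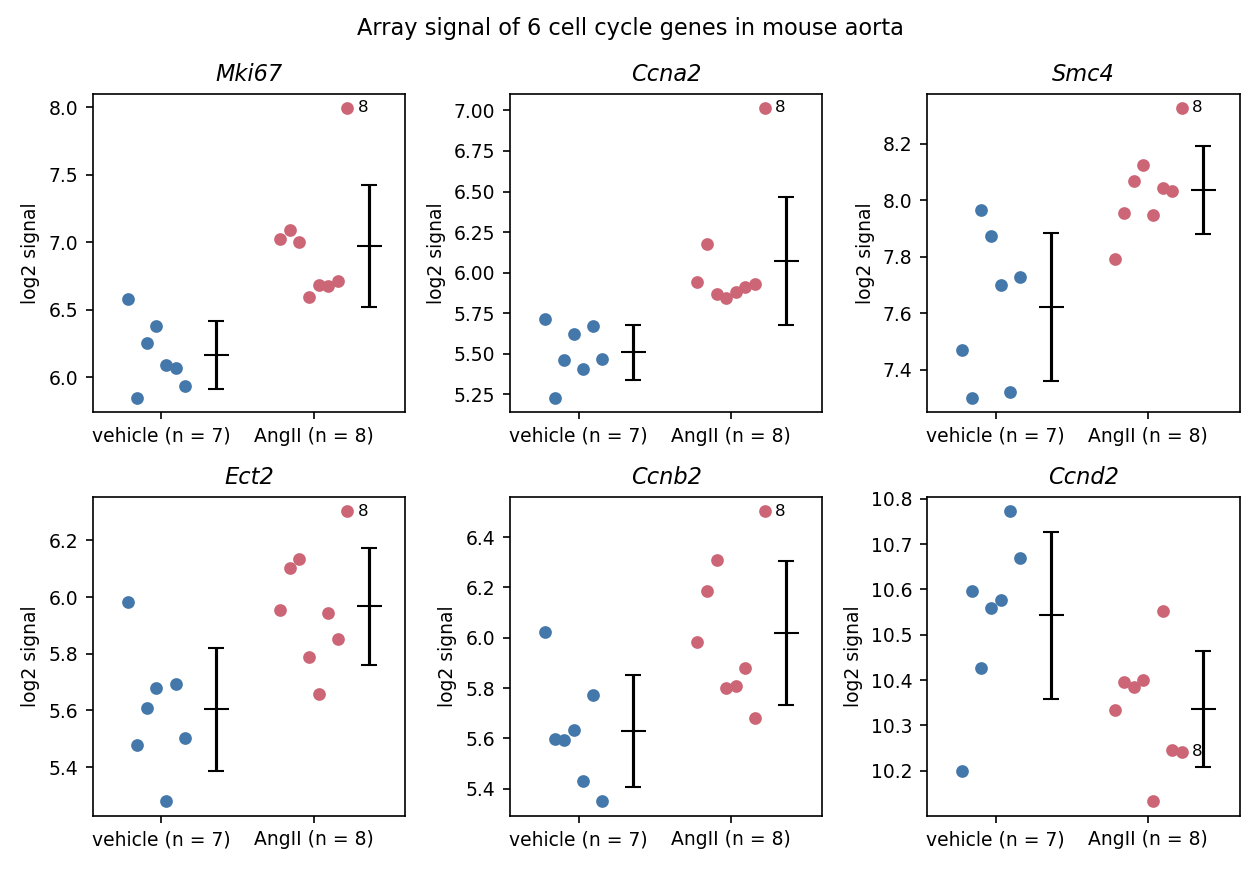
Log2 array signal of Mki67, Ccna2, Smc4, Ect2, Ccnb2 and Ccnd2 in 7 vehicle (blue) and 8 AngII (red) arrays, 1 point per mouse, with the mean and SD as a bar beside each group and AngII 8 marked. Mki67 and Ccna2 show no overlap between the groups, AngII 8 is the highest array for all but Ccnd2, and vehicle 1 is the highest vehicle array for Mki67, Ccna2, Ect2 and Ccnb2.

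The promoters of many mitotic members hold the elements named above. Those of Mki67, Ect2 and Ccnb2 are shown because these genes were among the 5 members of smallest adjusted p, and that of Mcm5 to set a replication gene beside them. Each window runs from 250 bases before to 50 bases after the annotated start of transcription, 5′ to 3′ on the strand of the gene, from RefSeq on GRCm38.p6. Mki67 is on the minus strand at chr7:135716330-135716629, Ect2 on the minus strand at chr3:27153829-27154128, Ccnb2 on the minus strand at chr9:70421505-70421804 and Mcm5 on the plus strand at chr8:75109259-75109558. Capitals mark matches on either strand to the CHR (TTTGAA), to CCAAT and to the E2F motifs TTCCCGC and TTGGCGC, and where an E2F match read as GCGCCAA runs into a CCAAT the capitals cover both.
Mki67: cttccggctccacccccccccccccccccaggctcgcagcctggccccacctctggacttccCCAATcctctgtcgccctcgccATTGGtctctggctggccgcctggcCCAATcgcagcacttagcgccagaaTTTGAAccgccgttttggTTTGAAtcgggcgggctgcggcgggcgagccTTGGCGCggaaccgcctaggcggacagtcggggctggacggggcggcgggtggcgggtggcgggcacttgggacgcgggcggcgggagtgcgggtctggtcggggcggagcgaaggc
Ect2: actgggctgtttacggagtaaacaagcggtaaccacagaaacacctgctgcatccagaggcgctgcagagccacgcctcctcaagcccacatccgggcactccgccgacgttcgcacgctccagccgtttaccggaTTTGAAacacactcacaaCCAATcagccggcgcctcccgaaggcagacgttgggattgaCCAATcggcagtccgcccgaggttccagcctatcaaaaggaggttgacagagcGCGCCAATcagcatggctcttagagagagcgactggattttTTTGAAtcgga
Ccnb2: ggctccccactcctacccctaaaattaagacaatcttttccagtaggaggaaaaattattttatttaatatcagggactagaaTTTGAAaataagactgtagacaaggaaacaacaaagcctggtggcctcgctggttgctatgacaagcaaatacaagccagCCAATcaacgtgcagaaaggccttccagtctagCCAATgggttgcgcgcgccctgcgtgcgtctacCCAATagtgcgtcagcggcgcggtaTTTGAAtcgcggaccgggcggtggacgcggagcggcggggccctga
Mcm5: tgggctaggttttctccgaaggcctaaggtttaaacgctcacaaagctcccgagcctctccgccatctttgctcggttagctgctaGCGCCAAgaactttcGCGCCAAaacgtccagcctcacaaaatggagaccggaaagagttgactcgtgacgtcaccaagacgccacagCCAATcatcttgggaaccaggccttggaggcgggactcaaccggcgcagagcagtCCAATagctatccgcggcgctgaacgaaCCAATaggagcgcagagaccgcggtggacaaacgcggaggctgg
Mki67 has 2 CHR matches downstream of its 3 CCAAT matches, with an E2F match between them and the start. Ccnb2 and Ect2 each have 1 CHR match upstream of the first CCAAT and 1 past the start, with 3 CCAAT matches between, and in Ect2 the E2F match overlaps the last CCAAT. Mcm5 has no CHR match, 3 CCAAT matches and 2 E2F matches upstream of them. A match is a run of letters and not a measured binding site.

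RefSeq windows matched 45 of the 56 members by symbol, and the other 11 were Ccnd1, Ccnd2, Ccne2, Cdkn1c, Mcm4, Smc4, Ccna2, Foxm1, Aurkb, Kif20a and Tpx2. A CHR match was present in 48.9% of the 45 windows, against 18.1% of 27025 windows, 1 for each gene. CCAAT was in 73.3% against 37.9%, an E2F match in 28.9% against 6.93%, and CHR and CCAAT together in 46.7% against 7.12%. The members divided by role. Of the 26 mitosis and chromosome genes 76.9% held a CHR match and 19.2% an E2F match, whereas of the 19 genes of G1, kinase inhibition and replication 10.5% held a CHR match and 42.1% an E2F match. Among members with both a window and an array signal, the median log2 fold change in AngII was 0.17 for the 10 with a CHR match, all above 0. It was 0.09 for the 15 without, of which 12 were above 0. The other motifs divided the same way, with 0.159 for the 17 with CCAAT and 0.106 for the 8 without. For E2F it was 0.186 for the 9 with a match and 0.127 for the 16 without. By signal, the median over the 33 measured members was 0.174 for the 20 below the median signal and 0.023 for the 13 above it. No test was made of these differences.

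**Figure D2:**
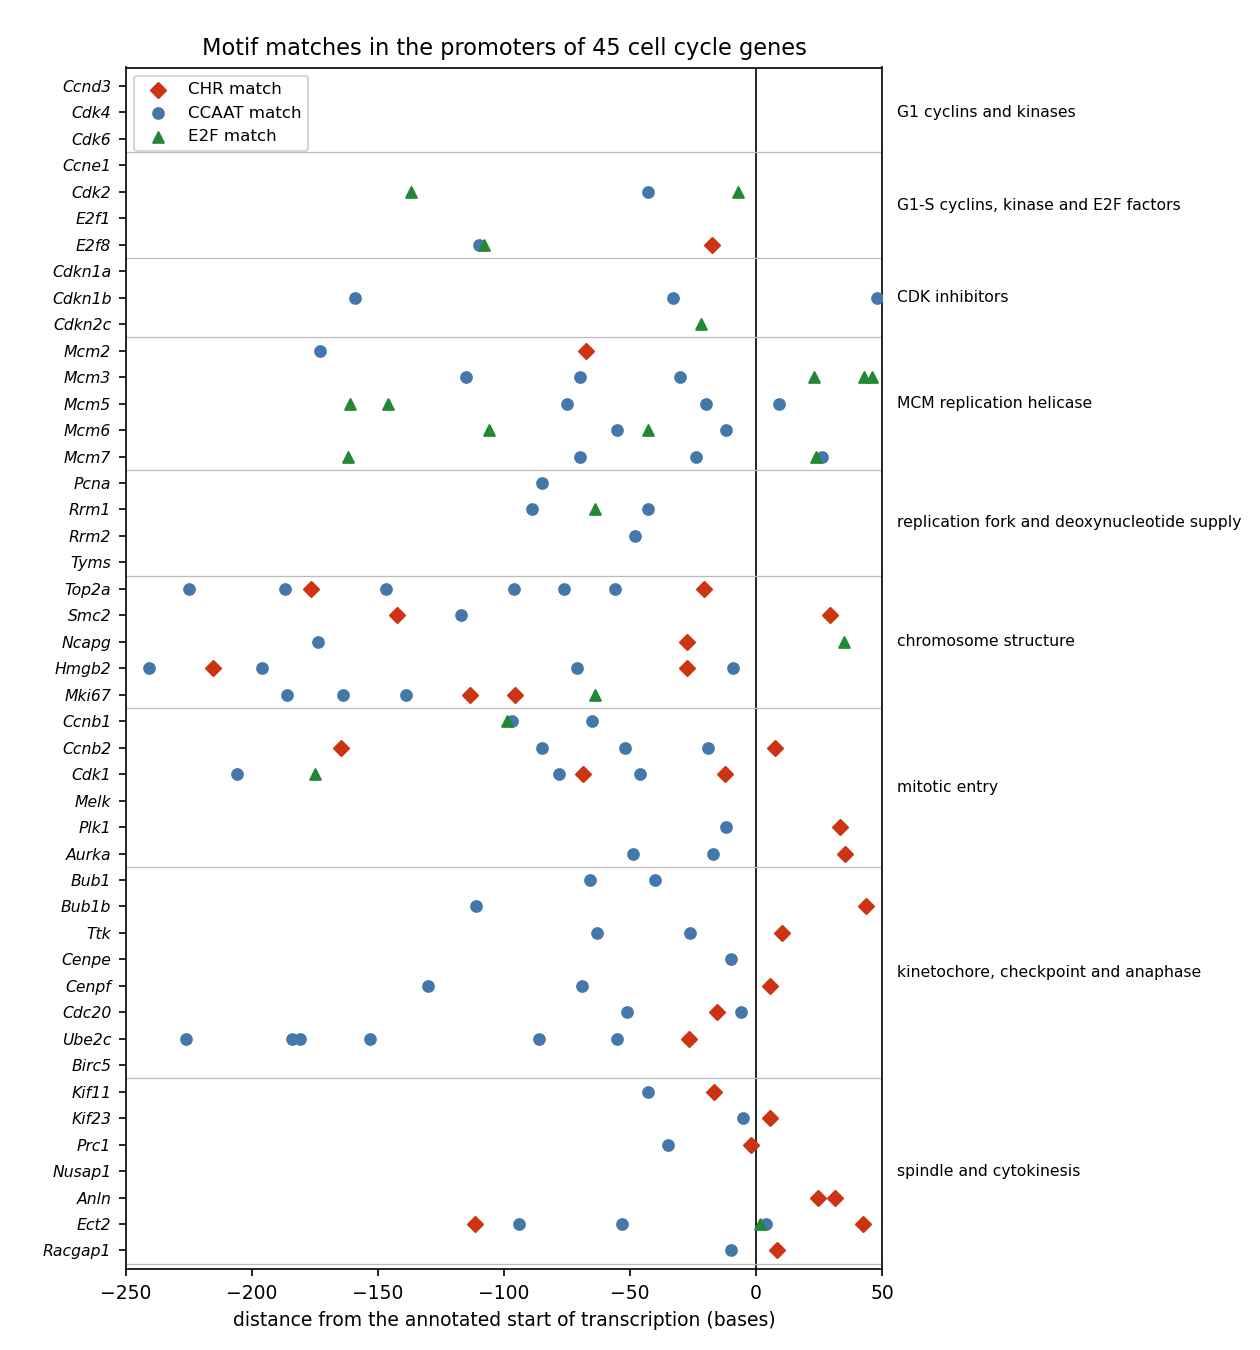
Position of each CHR (red diamond), CCAAT (blue circle) and E2F (green triangle) match in the 300-base windows of 45 members, grouped by role, with distance in bases from the annotated start (vertical line at 0). CHR matches are found in 20 of the 26 mitosis and chromosome genes and in 2 of the other 19, E2f8 and Mcm2.

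Among the remaining genes of mitotic entry, all 3 had log2 fold changes above 0 and none passed. Ccnb2, the B cyclin of Cdk1, was at 5.35, 5.60 and 6.02 (lowest, median, highest) in vehicle and 5.68, 5.93 and 6.502 in AngII arrays. The groups overlapped, mainly through vehicle 1, which at 6.02 exceeded 5 of the 8 AngII arrays. For Ccnb2, with only 10% of probe sets dimmer, the difference was 0.39 (SE 0.12, limma adjusted p = 0.0788). Unadjusted p was 0.00624 in limma and 0.0115 in the exact permutation test. Plk1, a kinase of mitotic entry and spindle assembly, was at 5.83 ± 0.09 (SD, n = 7) and 6.00 ± 0.28 (SD, n = 8), a difference of 0.17 (adjusted p = 0.348). Aurka, the centrosomal Aurora kinase, was at 5.61, 5.69 and 5.885 in vehicle and 5.68, 5.91 and 6.205 in AngII arrays. In 4 AngII arrays Aurka exceeded every vehicle array, and its difference of 0.18 did not pass (SE 0.08, adjusted p = 0.19).

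Ect2 is the exchange factor that activates RhoA at the cleavage furrow. Only 8.96% of probe sets were dimmer than that of Ect2. Its lowest, median and highest log2 signals were 5.28, 5.61 and 5.98 in vehicle and 5.66, 5.95 and 6.30 in AngII arrays. All 8 AngII arrays were above the vehicle median, but only 3 were above vehicle 1. The log2 fold change of 0.36 (SE 0.10) just missed the threshold, with limma adjusted p = 0.0526. Unadjusted p was 0.00293 in limma and 0.00715 in the exact permutation test. Without vehicle 1 both Ect2 (0.43, adjusted p = 0.0183) and Ccnb2 (0.46, adjusted p = 0.034) passed in limma, and without AngII 5 Ect2 passed as well (0.41, adjusted p = 0.0405). Tpx2, which activates Aurka on the spindle, was at 5.855, 5.99 and 6.11 in vehicle and 5.76, 6.21 and 6.60 in AngII arrays. AngII 6 was the lowest of all 15 arrays for Tpx2 and 5 AngII arrays exceeded every vehicle array. Its difference of 0.245 did not pass (limma adjusted p = 0.173), and without AngII 6 it was 0.31 and passed (adjusted p = 0.035). Anln, the cytokinesis scaffold anillin, was at 8.66 ± 0.25 (SD, n = 7) and 8.69 ± 0.34 (SD, n = 8). Its difference was 0.03, with a 95% interval from -0.27 to 0.335.

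For the anaphase genes, Aurkb, the kinase of the chromosomal passenger complex, had log2 means of 5.635 and 5.86, and Cdc20, an activator of the anaphase-promoting complex, had 5.69 and 5.83. Both differences, 0.23 and 0.14, missed the threshold (adjusted p = 0.225 and 0.329 from limma). Hmgb2, a DNA-bending chromatin protein, differed by 0.26 (adjusted p = 0.222), with AngII arrays between 5.57 and 6.45 and vehicle arrays between 5.38 and 6.045. In all, 13 measured members act on chromosomes, in mitosis or in cytokinesis, and each had a log2 fold change above 0. Medians by role were 0.34 for chromosome structure (4 genes), 0.28 for mitotic entry (4), 0.245 for spindle and cytokinesis (3) and 0.18 for the kinetochore, checkpoint and anaphase (2).

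**Figure D3:**
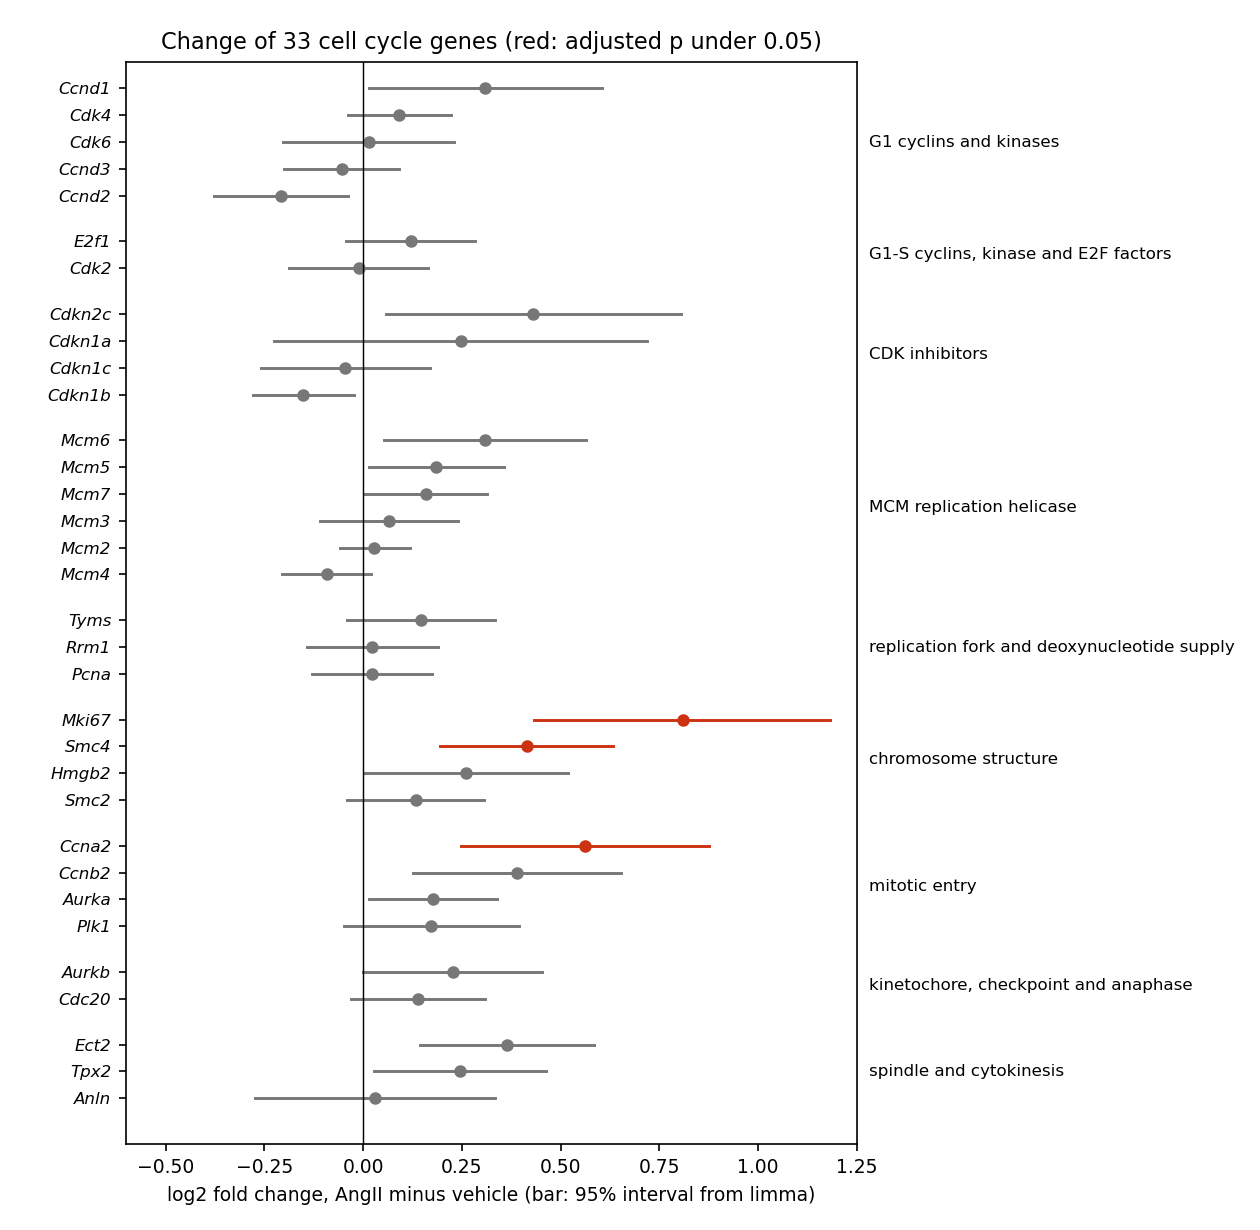
Log2 fold change of the 33 members, AngII minus vehicle, with its 95% interval from limma, grouped by role, where red marks an adjusted p under 0.05. Mki67, Smc4 and Ccna2 are red, every gene of chromosome structure and mitosis lies right of 0, and the genes of G1 and of kinase inhibition lie on both sides of 0.

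None of the replication genes passed. Mcm2 to Mcm7 encode the hexamer that unwinds DNA ahead of the fork, and their median log2 fold change was 0.11. Mcm6 had the largest difference of them. It was at 7.43, 7.94 and 8.195 (lowest, median, highest) in vehicle and 7.79, 8.28 and 8.47 in AngII arrays. In 6 AngII arrays the signal of Mcm6 exceeded every vehicle array, while AngII 5 and AngII 6 lay inside the vehicle range. Its difference was 0.31 (SE 0.12, limma adjusted p = 0.146). The sample names given by the submitters fall into 2 series, and Mcm6 differed by 0.74 in series A (2 vehicle and 3 AngII arrays) and by 0.11 in series B (5 and 5). In limma that difference did not pass after adjustment (adjusted p = 0.729).

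Mcm5 was at 5.73, 5.795 and 5.99 in vehicle and at 5.84, 5.92 and 6.405 in AngII arrays. Only AngII 1, 5 and 8 were above the highest vehicle array, and the difference of 0.19 did not pass (SE 0.08, limma adjusted p = 0.19). Mcm7 had log2 means of 6.30 and 6.46, a difference of 0.16 (adjusted p = 0.215), and Mcm3 had 6.24 and 6.31. Mcm4 had the opposite sign, with 7.02 ± 0.08 (SD, n = 7) and 6.92 ± 0.09 (SD, n = 8), a difference of -0.09 (adjusted p = 0.321). Mcm2, at 6.30 and 6.33, differed by 0.03 with a 95% interval from -0.06 to 0.12. For Mcm2 the same deposited value, 6.31, recurred to the last digit on 6 arrays, for Mcm3 the value 6.27 on 5 and for Cdc20 the value 5.78 on 4. At least 4 arrays shared a value in 4.92% of all probe sets, in 7.72% of those below the median signal and in 2.11% of the others.

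At the fork, Pcna, is the sliding clamp of DNA polymerases. Its lowest, median and highest log2 signals were 8.23, 8.35 and 8.57 in vehicle and 8.19, 8.425 and 8.61 in AngII arrays. The ranges nearly coincided, and the difference was 0.02 with a 95% interval from -0.13 to 0.175. Rrm1, the large subunit of ribonucleotide reductase, was at 7.25 ± 0.11 (SD, n = 7) and 7.28 ± 0.18 (SD, n = 8). Tyms, thymidylate synthase, had means of 6.78 and 6.92, a difference of 0.15 (limma adjusted p = 0.346).

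None of the 5 D cyclins and their kinases passed. Ccnd2 was at 10.20, 10.58 and 10.77 (lowest, median, highest) in vehicle and 10.13, 10.36 and 10.55 in AngII arrays. No AngII array reached the vehicle median, while vehicle 1, at 10.20, was lower than every AngII array other than AngII 5. The log2 fold change of Ccnd2 was -0.21 (SE 0.08, limma adjusted p = 0.144), and without vehicle 1 it was -0.26 and passed (adjusted p = 0.0344). Ccnd1, a D cyclin that growth factors induce, was at 7.47, 7.80 and 8.12 in vehicle and 7.57, 8.00 and 8.53 in AngII arrays. The ranges overlapped over most of their length, and the difference was 0.31 (SE 0.14, adjusted p = 0.204). The third D cyclin, Ccnd3, differed by -0.05, its kinase partners Cdk4 and Cdk6 by 0.09 and 0.015, and Cdk2 and E2f1, which act at the entry to S phase, by -0.01 and 0.12 on the log2 scale. Adjusted p for these 5 ran from 0.376 to 0.956 in limma.

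Of the 4 kinase inhibitors, which hold cells in G1, 2 were above 0 and 2 below, and none passed. Cdkn1b, or p27, was at 8.43, 8.50 and 8.67 in vehicle and 8.19, 8.395 and 8.52 in AngII arrays. It was below the vehicle median in 7 of 8 AngII arrays and lowest in AngII 8, and its log2 fold change was -0.15 (SE 0.06, limma adjusted p = 0.152). Cdkn2c, or p18, an inhibitor of Cdk4 and Cdk6, was at 6.20, 6.43 and 7.25 in vehicle and 6.57, 7.17 and 7.36 in AngII arrays. Both groups were wide, with vehicle 1 and vehicle 3 above 7 and the AngII arrays 1, 2 and 6 below it. The difference of 0.43 did not pass (SE 0.18, adjusted p = 0.162).

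Cdkn1a, or p21, a target of p53, had the largest standard error of the members. It was at 7.72, 8.55 and 9.39 in vehicle and 7.96, 8.89 and 9.25 in AngII arrays, so every AngII array lay within the vehicle range. AngII 8, the array with the most Mki67, had the least Cdkn1a of the AngII arrays. For Cdkn1a the log2 fold change was 0.25 (SE 0.22, limma adjusted p = 0.555) and ranged from 0.11 without vehicle 7 to 0.39 without vehicle 1 when each array was left out, with 0.36 without AngII 8. Cdkn1c, or p57, was at 6.28 ± 0.14 (SD, n = 7) and 6.23 ± 0.25 (SD, n = 8).

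AngII 8 was the highest of the 15 arrays for 16 of the 33 members, and AngII 5 and AngII 6, which came next, were for 4 each. Averaged over the 33 members, the log2 signal was 6.86 to 6.995 in the vehicle arrays, 7.02 to 7.13 in AngII 1 to 7 and 7.285 in AngII 8. With AngII 8 left out, 27 members were again above 0 and the median log2 fold change was 0.10. AngII 8 was also among the 3 arrays of lowest median correlation, together with AngII 5 and vehicle 1. In a fit without those 3 arrays, chosen after seeing the data, 3 members were called, Mki67, Ccna2 and Ect2.

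**Figure D4:**
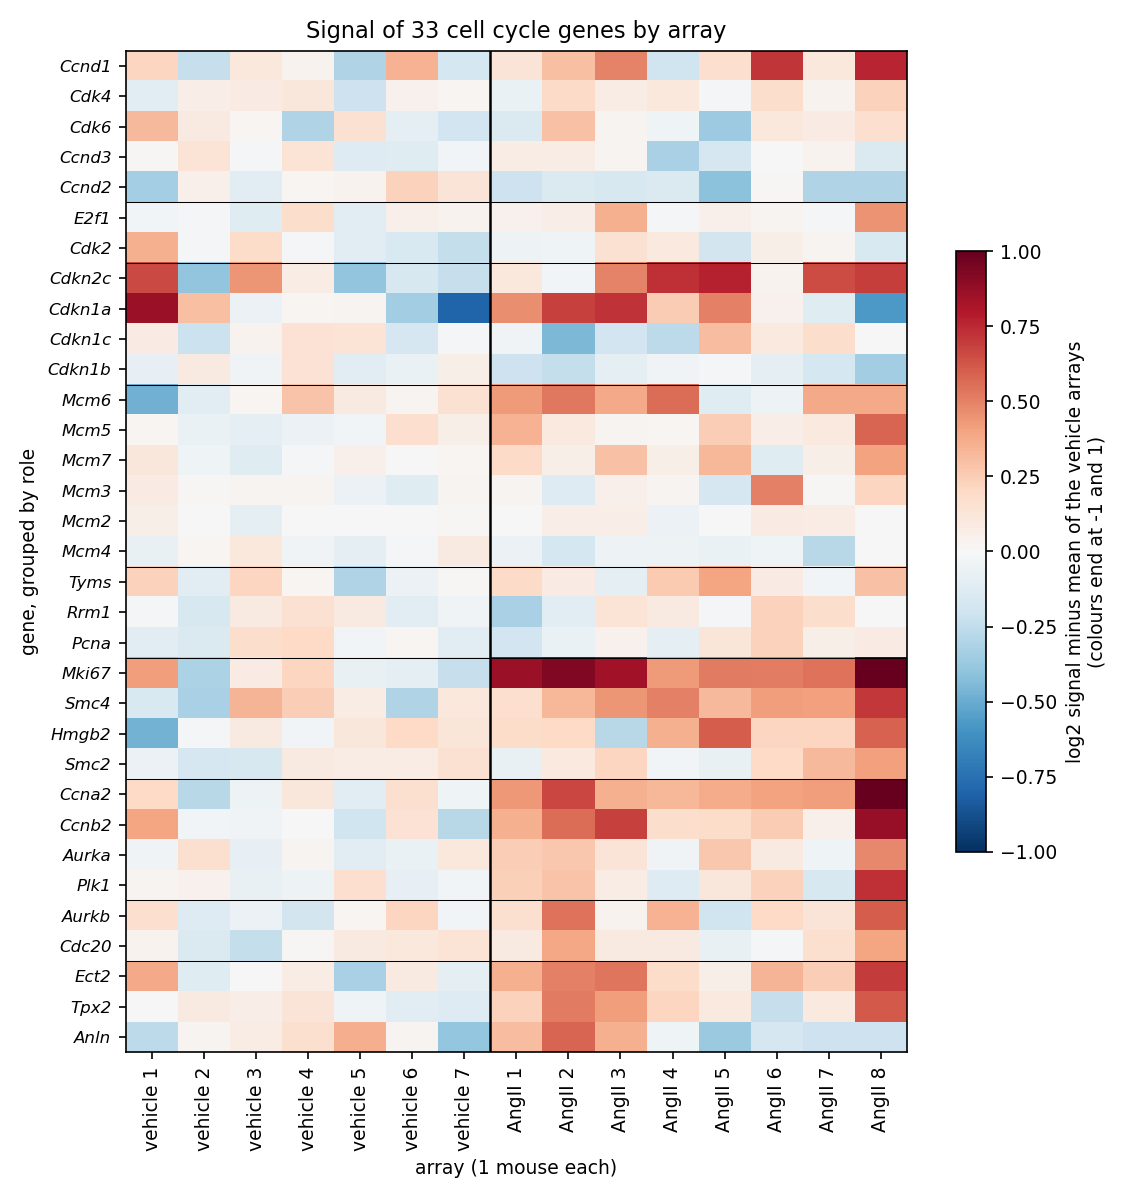
Log2 signal of the 33 members on each array minus the mean of the 7 vehicle arrays, with genes grouped by role and colours that end at -1 and 1. AngII 8 is the reddest column for Mki67, Smc4, Ccna2 and Ccnb2, and vehicle 1 is the reddest of the vehicle columns for Mki67, Ccna2, Ccnb2 and Ect2.

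Most macrophage markers were also higher in AngII arrays than in vehicle arrays. Of 12 markers, 8 were higher in AngII and none was lower, among them Mpeg1 (log2 fold change 1.497), Cd68 (0.73) and C1qa (0.62), and the mean over the 12 was 7.37 to 8.14 in vehicle and 8.04 to 8.93 in AngII arrays. AngII 8 had the highest mean of all arrays, and vehicle 1 the highest of the vehicle arrays. With the macrophage mean as a covariate no member was called, and over all 15095 probe sets 1 was. In that fit the log2 fold change was 0.32 for Mki67, 0.18 for Ccna2, 0.10 for Ect2 and 0.02 for Ccnb2, while it was 0.37 for Smc4 and 0.595 for Mcm6 (limma adjusted p = 0.811, 0.889, 0.924, 0.986, 0.624 and 0.277). Of 10 fibroblast markers 2, Lum and Dpt, were higher, and of 10 smooth muscle markers 1, Synpo2, was lower. Nkg7, the only T and NK cell marker of 9 in the table, was higher by 0.43 (adjusted p = 0.0085), and of the dendritic and B cell lists 1 marker each was in the table and did not pass. The mean of 10 adipocyte markers ran from 7.83 to 10.47 in vehicle and 8.285 to 10.39 in AngII arrays. With it as a covariate Mki67 (0.755) and Smc4 (0.43) were still called and Ccna2 was not (0.55, limma adjusted p = 0.068). Although each aorta had been cleaned of fat, Ucp1 ran from 8.50 to 12.20 in the vehicle arrays. Vehicle 1 had the highest adipocyte mean of all arrays, 10.47. Its mean of 6 skeletal and cardiac muscle markers was 9.32, against 6.36 to 6.68 in the other vehicle arrays. For the same markers AngII 1 had 8.90, against 6.52 to 7.17 in the other AngII arrays. The part of these cell types in the result was not tested.

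With AngII 8 set aside after seeing the data, the level of Mki67 in the AngII arrays divided by naming series. The vehicle arrays did not divide so, since vehicle 1 and vehicle 2, both of series A, had the highest and the lowest Mki67. AngII 1 to 3, of series A, had Mki67 between 7.01 and 7.09, AngII 4 to 7, of series B, had it between 6.59 and 6.71, and AngII 8, also of series B, was at 8.00. Ccnb2 followed the same division, with 5.98 to 6.31 in AngII 1 to 3, 5.68 to 5.88 in AngII 4 to 7 and 6.502 in AngII 8. Ect2 did so as well, with 5.96 to 6.135, 5.66 to 5.945 and 6.30. Within AngII 4 to 7 the array with the most Mki67, AngII 7, had the least Ccnb2. Ccna2 overlapped between the first 2 of these sets, with 5.87 to 6.18 and 5.84 to 5.93, and so did Smc4, with 7.79 to 8.07 and 7.95 to 8.12, and the macrophage mean, with 8.10 to 8.47 and 8.04 to 8.63. By Mki67, Ccnb2 and Ect2 the AngII arrays could thus be put into separate sets, a split made after seeing the data. For Ect2 the split was narrow, with AngII 6 at 5.945 and AngII 1 at 5.956. Each set was too small for a correlation of its own. Whether these genes rise together from mouse to mouse could not be tested apart from the series. Over the 7 vehicle arrays Pearson's r with Mki67 was 0.693 for Ccnb2, 0.748 for Ect2 and 0.746 for Ccna2 (exact permutation p = 0.079, 0.0512 and 0.0496), and Spearman's rho was 0.50, 0.607 and 0.607 (exact permutation p = 0.267, 0.167 and 0.167). For Smc4, the macrophage mean and the adipocyte mean r was 0.297, 0.593 and 0.477 (exact permutation p = 0.512, 0.159 and 0.277). These vehicle values pool both series as well. The 12 relations computed include 6 over the AngII arrays, which pool both series and include AngII 8, so no conclusion is drawn from them. There r was 0.873 for Ccnb2, 0.845 for Ect2 and 0.946 for Ccna2 (exact permutation p adjusted over the 12 = 0.0153, 0.0153 and 0.019). For Spearman's rho the adjusted p was 0.147, 0.131 and 0.131. Smc4, the macrophage mean and the adipocyte mean did not pass for r (adjusted p = 0.247, 0.151 and 0.827). Adjusted over the 12, none of the 6 vehicle relations passed (adjusted p = 0.151, 0.123, 0.123, 0.559, 0.238 and 0.332 for r, in the order given). Without vehicle 1 and vehicle 4, the arrays farthest from the median of Mki67, r was 0.201 for Ccnb2, 0.216 for Ect2 and 0.486 for Ccna2. It was then 0.671 for Smc4, 0.105 for the macrophage mean and 0.30 for the adipocyte mean.

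**Figure D5:**
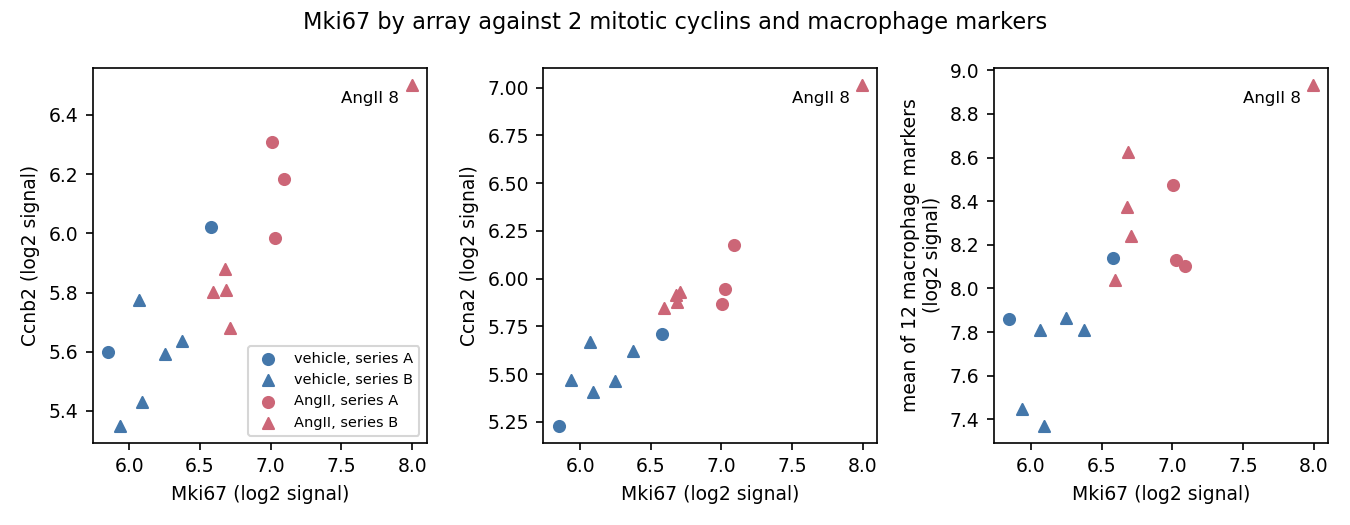
Log2 signal of Mki67 on each array against that of Ccnb2 and Ccna2 and against the mean log2 signal of 12 macrophage markers, for 7 vehicle (blue) and 8 AngII (red) arrays, with circles for naming series A and triangles for series B. AngII 8 is at the upper right in each panel, and the other AngII arrays divide by series along the Mki67 axis, with series A between 7.01 and 7.09 and series B between 6.59 and 6.71.

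By naming series, the difference for Mki67 was 0.83 in series A and 0.79 in series B, for Ccna2 0.525 and 0.59 and for Smc4 0.55 and 0.38. Neither series alone, with its smaller number of arrays, gave a call of any member, and over all 15095 probe sets series A alone gave 8 calls and series B alone 373. With the series as a block in the fit, Mki67, Smc4, Ccna2 and also Ect2 (0.35, limma adjusted p = 0.048) were called. Cdkn2c differed by 0.06 in series A and 0.63 in series B, and Ccnd2 by -0.03 and -0.29. The difference between the series did not pass for any of the 16 members tested for it, with 0.729 as the lowest adjusted p from limma.

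Beyond the 56, 4 lists of other cell cycle genes held 128 genes, of which 75 were measured, and 4 were higher and 3 lower in AngII at an adjusted p under 0.05, where 2.42% and 2.91% of all probe sets were. Of 19 other replication genes 1 was lower, of 14 other mitosis genes 1 was higher, of 29 other regulators 1 was higher and 1 lower, and of 13 p53 target genes 2 were higher and 1 lower. The log2 fold change was above 0 for 12 of the 14 mitosis genes (median 0.16) and for 15 of the 29 regulators (median 0.02). Plk2 and Plk3, polo-like kinases that respond to stress and are p53 targets, had the smallest adjusted p of these lists. Plk2 ran from 6.44 to 6.85 in vehicle and from 6.99 to 7.43 in AngII arrays, and Plk3 from 5.79 to 6.275 and from 6.40 to 6.71. In both genes all 8 AngII arrays exceeded all 7 vehicle arrays (log2 fold changes 0.64 and 0.47, adjusted p = 0.00166 and 0.004 from limma). Trp53inp1, another p53 target, fell by 0.47 (adjusted p = 0.0341), from 8.96 ± 0.265 (SD, n = 7) to 8.49 ± 0.24 (SD, n = 8). Its call ended without any 1 of vehicle 3, 4, 5 or 7 or AngII 1, 3, 5 or 8. The log2 fold change of Trp53inp1 was -0.52 to -0.41 when each array was left out.

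The retinoblastoma-related genes Rbl1 and Rbl2 had opposite signs. Rbl1, or p107, which is mostly made in cycling cells, rose from 6.32 ± 0.13 (SD, n = 7) to 6.62 ± 0.12 (SD, n = 8). In 7 of 8 AngII arrays Rbl1 was above every vehicle array (log2 fold change 0.30, limma adjusted p = 0.0195), and its call ended without vehicle 5. Rbl2, or p130, the main member of the family in resting cells, fell by 0.22 (adjusted p = 0.0456), from 9.44 ± 0.10 (SD, n = 7) to 9.22 ± 0.11 (SD, n = 8). No AngII array reached the vehicle median for Rbl2, and its call was lost without any 1 array other than vehicle 6, AngII 4 or AngII 6. Ncapd2, a subunit of condensin I, rose by 0.24 (adjusted p = 0.0401), from 6.47 ± 0.12 (SD, n = 7) to 6.705 ± 0.11 (SD, n = 8), and was not called without any 1 of vehicle 2, 4, 5, 6 or 7 or AngII 3, 4, 5 or 8. Pola1, the catalytic subunit of DNA polymerase alpha, fell by 0.24 (adjusted p = 0.0434), from 6.74 ± 0.11 (SD, n = 7) to 6.498 ± 0.13 (SD, n = 8), and kept its call only without vehicle 1, vehicle 2 or AngII 6. When each array was left out, the log2 fold change was 0.265 to 0.328 for Rbl1 and -0.244 to -0.186 for Rbl2. It was 0.209 to 0.268 for Ncapd2 and -0.269 to -0.207 for Pola1.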

How the data were processed

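RNA of whole aorta was measured on Affymetrix arrays, 1 per mouse, in 7 vehicle and 8 AngII mice. The labels name Trizol and RNeasy for RNA extraction and the study's methods name miRNeasy. The authors summarized and normalized the probes by RMA in Expression Console, and the deposited values are log2 intensities. RMA pulls dim probe sets together, so their fold changes tend to be understated. Genes were taken from the platform annotation, and a gene with several probe sets would be represented by the one of highest mean. All 15095 probe sets were fitted with limma 3.58.1 (R 4.3.3) for AngII against vehicle with no covariate, and Benjamini-Hochberg adjustment was over all of them at 0.05. The fit was tested on simulated arrays with known changes. The study's methods used significance analysis of microarrays, which was not repeated here. Exact permutation tests of the group means, two-sided with the smaller tail doubled, used scipy 1.17.1. They were made for single genes, and their p is not adjusted. Exact permutation tests of Pearson's r and Spearman's rho took the share of all orderings whose absolute value was at least the observed one. Array medians lay between 7.16 and 7.28 and pairs of arrays correlated at r from 0.925 to 0.985. The number of arrays, which are separate mice, limits the precision. Described in full were members past the threshold, the 10 next by adjusted p, and a set of well-known members whatever their result (Mki67, Ccna2, Ccnd1, Cdkn1a, Cdkn1b, Pcna and Mcm2 of those measured). Of the other cell cycle genes those past the threshold were described. The members, the other lists and the markers were chosen with earlier results of these data known. Promoters were the first listed RefSeq window of each gene on GRCm38.p6, and 6 members had several. Alternatives were leaving out each array, blocks by naming series and by replicate number, array weights, a trend with robust variance, a further quantile normalization, a filter on dim probe sets, other rules for a gene's probe set, and the adipocyte or macrophage mean as a covariate.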

Additional observations from a re-analysis of the deposited data

Results flagged for a closer look

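Of 46 gene and group combinations examined, 3 had an array whose gap to the nearest other array was a large share of the group's range, which by construction of the rule (Dixon's 95% critical values) happens by chance in about 1 in 20 groups. For Mki67 in the AngII arrays this share was 0.645, with AngII 8 at a log2 signal of 8.00 and the nearest array at 7.09. For Ccna2 in the AngII arrays it was 0.717, again for AngII 8, at 7.015 against 6.18. For Mcm2 in the vehicle arrays it was 0.637, with vehicle 3 at 6.21 and the nearest array at 6.31, where 4 of the 7 vehicle arrays share 1 deposited value. Without AngII 8 the limma calls of Mki67 (0.66, adjusted p = 0.00938) and Ccna2 (0.43, adjusted p = 0.0111) remained.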

How the results depend on the processing

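The number of members called higher, 3 as reported, was 1 to 5 when each array was left out, and the number called lower 0 to 1. Calls over all 15095 probe sets moved as well. They ran from 170 higher and 174 lower without vehicle 5 to 509 and 689 without AngII 6, against 366 and 439 with all arrays. Mki67 was called in each of these fits. The fewest, Mki67 alone, were called without vehicle 2, vehicle 5 or AngII 7, and the most without vehicle 1. The median log2 fold change of the members stayed between 0.10 and 0.17 there, and the other cell cycle genes gave 2 to 6 higher and 0 to 4 lower. Among the probe sets above the median signal, which hold 13 members, 1 member was higher (Smc4) and the median was 0.023. Mki67 and Ccna2 are dimmer than this cut and were not tested there. Of the other genes 0 were higher and 2, Trp53inp1 and Rbl2, were lower. Array weights called 5 higher and 1 lower. The adipocyte covariate left 0 of the other genes lower. The macrophage covariate gave 0 members and 0 other genes in either direction and a median of 0.022. Series B alone, with 373 of 15095 probe sets called, gave 0 members, 2 other genes higher and 0 lower, and series A alone, with 8 called, gave 0 of each. Same-numbered arrays did not pair, since 4 of 7 pairs correlated above 0.1 (range -0.456 to 0.416) and 1 array matched its own number best, and with the numbers as a replicate block 1 member (Mki67) and 2 other genes were higher and 0 lower. Over 23 single genes and 630 alternative values, 509 kept direction and side of the threshold, 103 lost a call, 11 gained one and 7 changed sign. Those 7 were Cdkn2c (-0.018) and Ccnd1 (-0.111) with the macrophage covariate, and Pcna with it (-0.085), with array weights (-0.011), without the 3 least correlated arrays (-0.023), without AngII 6 (-0.008) and without vehicle 2 (-0.001), where leaving out each array gave Pcna -0.008 to 0.055. The causes were not tested. Dim signal limits what can be seen, as 20 of the 33 members lie below the median of all probe sets.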
